A study of Mus musculus with 10 samples.

Results

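The genes described here encode deubiquitinases of the USP and OTU classes. They were taken from a table of protein-coding genes by symbol: Usp followed by a number, Otud or Otub, leaving out Usp18, whose product removes the ubiquitin-like protein ISG15. The rule found 59 genes among the 16936 of the table, 51 of them Usp genes and 8 Otud or Otub genes. It also admits genes whose products are not active deubiquitinases: Usp6nl encodes a GTPase-activating protein for Rab proteins, and Usp39 encodes a component of the splicing machinery that lacks the catalytic residues.

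The RNA came from mouse macrophages that had been differentiated from bone marrow over 7 days in 50 ng/mL GM-CSF, a cytokine under which marrow cells acquire traits of macrophages and of dendritic cells. The PLG group held 5 samples exposed for 24 h to plasminogen of human origin, and the untreated group held 5 samples without it. All 10 samples share the GM-CSF culture. The labels give neither a mouse strain, genotype, sex or age nor a dose of PLG, and name no control preparation, so plasminogen itself and anything else in the added material cannot be told apart. Whether replicates were different mice or cultures is not stated, so every p-value reflects variation among these samples only, which may be technical.

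Ubiquitin is a small protein that ligases attach to other proteins, singly or as chains, and deubiquitinases cut it off again. The USP class is the largest family of these proteases. OTU enzymes form a smaller class whose members often prefer chains of a particular linkage. In macrophages, ubiquitin chains on adaptors such as TRAF3, TRAF6 and RIPK1 carry the signal of toll-like and TNF receptors towards NF-kB and interferon genes, and several members of both classes trim these chains. Other members act on histones, at sites of DNA damage, on endosomes, at the proteasome or on mitochondria.

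Values are FPKM, read counts scaled by gene length and by library size, so levels of different genes are compared per length. A difference is PLG minus untreated in log2(FPKM + 1), where changes of low genes come out smaller than they are, and a ratio is that of the mean FPKM of the groups. Tests covered genes with 1 FPKM or more in no fewer than 5 samples, and a gene passed at a Benjamini-Hochberg adjusted p under 0.05 in limma. Of the 59 members 47 were tested and 12 lay under the filter. Of all 9997 genes tested 60.4% passed. Usp11 and Usp53 met the filter through the PLG samples alone, so for them the filter already asked for a high level in that group.

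The libraries held 33547089 to 64214559 reads on the listed genes in PLG samples and 28426105 to 37680105 in untreated samples, read counts that the spacing of low FPKM values gave back. PLG and untreated samples lay apart on the first principal component (85.7% of the variance). The macrophage markers Adgre1, Cd68, Csf1r, Itgam, Lyz2, Fcgr1, Mertk and Cd14 were all tested, 2 of them higher and 5 lower with PLG, at a summed level of 3137 to 3243 FPKM in PLG samples and 5874 to 7395 FPKM in untreated samples. Lyz2 carried that sum, and the other 7 markers summed to 1124 to 1249 FPKM in PLG samples and 776 to 835 FPKM in untreated samples, the opposite direction. That direction came from Cd14, with means of 508 FPKM with PLG and 33.7 FPKM untreated, and Adgre1, with 177 and 80.0 FPKM. Cd68, Csf1r, Itgam and Mertk fell like Lyz2, and Fcgr1 did not pass. Of 6 tested dendritic cell markers 3 rose, Ccr7, Zbtb46 and Flt3, and 3 fell, Itgax, Clec9a and Cd209a. The summed level of the 7 dendritic cell markers was 671 to 741 FPKM in PLG samples and 304 to 346 FPKM in untreated samples, and without Ccr7 it was 162 to 177 FPKM in PLG samples and 272 to 302 FPKM in untreated samples. Of the markers named here, Flt3, Camp and Pdgfrb met the filter through the PLG samples alone and Cd209a through the untreated samples alone. Markers of T, B and NK cells and of erythroid cells summed to at most 0.893 FPKM per list in any sample, and all lay under the filter. Cd8a was at 0.181 to 0.611 FPKM with PLG and 0 to 0.092 FPKM untreated. Klrd1 was at 0.057 to 0.408 FPKM with PLG and 0 FPKM untreated. For the other markers of these lists the groups overlapped. Neutrophil markers summed to 15.5 to 23.8 FPKM in PLG samples and 8.04 to 18.1 FPKM in untreated samples. S100a8 and Camp were higher, and the defining Ly6g and Mpo were near 0. S100a9 averaged 3.80 FPKM with PLG and 5.32 FPKM untreated and did not pass. Ltf, under the filter, averaged 0.614 FPKM with PLG and 0.562 FPKM untreated. Endothelial markers summed to 4.98 to 6.37 FPKM in PLG samples and 5.34 to 6.69 FPKM in untreated samples, and mast cell markers to 8.13 to 11.8 FPKM in PLG samples and 7.4 to 16.9 FPKM in untreated samples. Stromal markers summed to 5.31 to 6.49 FPKM with PLG and 0.89 to 1.91 FPKM untreated, with Pdgfrb higher while Col1a1 and Col1a2 were near 0. Without Pdgfrb they summed to 0.145 to 0.912 FPKM with PLG and 0.645 to 1.64 FPKM untreated. Lepr, under the filter, averaged 0.158 FPKM with PLG and 0.839 FPKM untreated. The part of these shifts in the results below was not tested. In such bulk RNA, fewer cells of a type and less RNA per cell cannot be told apart. Repeat-like gene models named Gm10800, Gm10801 and Gm21738 took 0.13% to 4.08% of the reads in PLG samples and 0.797% to 5.92% in untreated samples, and were lowest in PLG 3, PLG 4 and untreated 2.

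The members divided almost evenly by direction. With PLG 12 of the 47 tested members rose and 11 fell, while 24 did not pass. That is 25.5% higher against 29.1% of all genes tested, and 23.4% lower against 31.3%. The 12 include Usp11 and Usp53, which met the filter through the PLG samples alone. The median difference of the tested members was -0.02, as over all genes (-0.02), and the median size of the difference was 0.19, against 0.30 over all genes. By role, the median difference was 0.10 for immune signalling, 0.19 for chromatin, -0.16 for DNA repair and the cell cycle, -0.07 for membrane traffic and -0.21 for protein and organelle quality. Roles were assigned with earlier results of these data known, and differences between roles were not tested. The groups did not overlap for 17 of the 47 members, against 47.2% of all genes. By at least 1.5-fold on the log2(FPKM + 1) scale 5 members rose (10.6% of those tested, against 14.5% of all genes) and 0 fell, against 13.3% of all genes, and 2 of the 5 are Usp11 and Usp53. That size rule depends on the added constant: with 0.1 in place of 1, 8 members rose and 2 fell by 1.5-fold, and with 5 none did. The summed level of the 59 members was 460 ± 11.7 FPKM in PLG samples and 444 ± 14.3 FPKM in untreated samples (SD, n = 5 each), with overlapping ranges. Scaling every sample to a common sum left 9 members higher and 3 lower, Usp14, Usp30 and Usp45, with 3 rises (Usp4, Usp16 and Usp21) and 8 falls no longer passing. Without PLG 3, PLG 4 and untreated 2, 9 members rose and 10 fell of 45 tested.

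**Figure D1:**
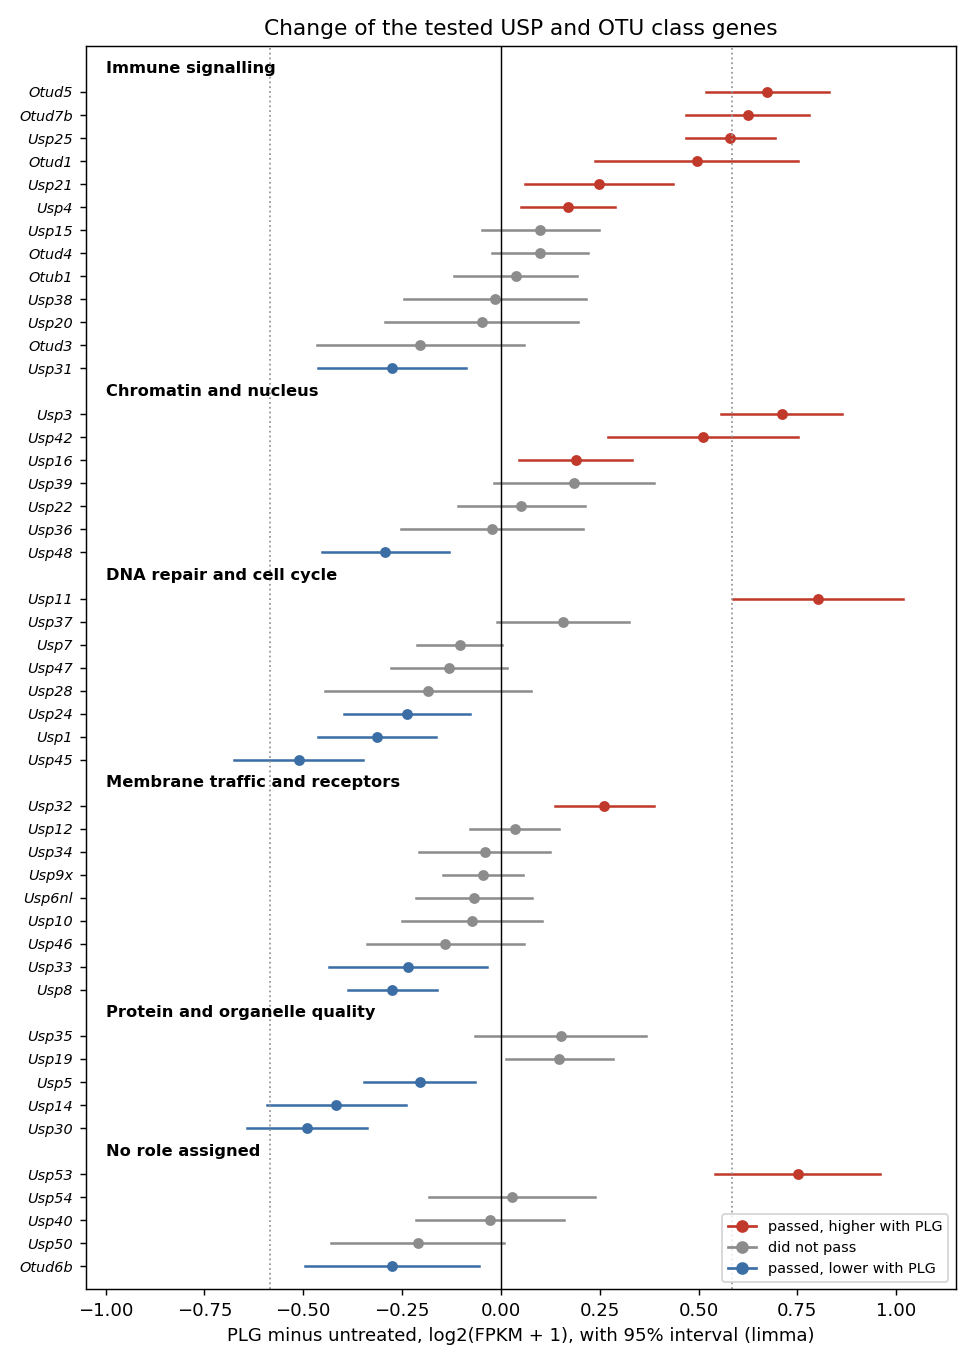
Difference of each tested member, PLG minus untreated, on the log2(FPKM + 1) scale (x axis), with its 95% interval from limma, grouped by role. Red marks the 12 members that rose, blue the 11 that fell and grey the 24 that did not pass, and dotted lines mark a change of 1.5-fold.

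The order of the levels changed at the top. Usp25 was the most abundant member with PLG, at 42.3 to 45.0 FPKM, and Usp8 followed at 28.3 to 30.7 FPKM. In untreated samples the order was the other way, with Usp8 at 33.5 to 39.4 FPKM and Usp25 at 27.0 to 31.4 FPKM. The ranges of the 2 genes did not overlap in either group. Otud5 held rank 4 by mean level in PLG samples and rank 11 in untreated samples. Otub1, Usp5 and Usp9x, neighbours in the PLG order, had ranges that overlapped, as had Usp5, Usp19 and Otub1 in untreated samples. Usp54, at 0.836 to 1.49 FPKM, closed the order with PLG, and Usp11, at 0.293 to 0.669 FPKM, closed it in untreated samples. The median coefficient of variation among the 5 samples was 7.64% with PLG and 10.1% in untreated samples.

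**Figure D2:**
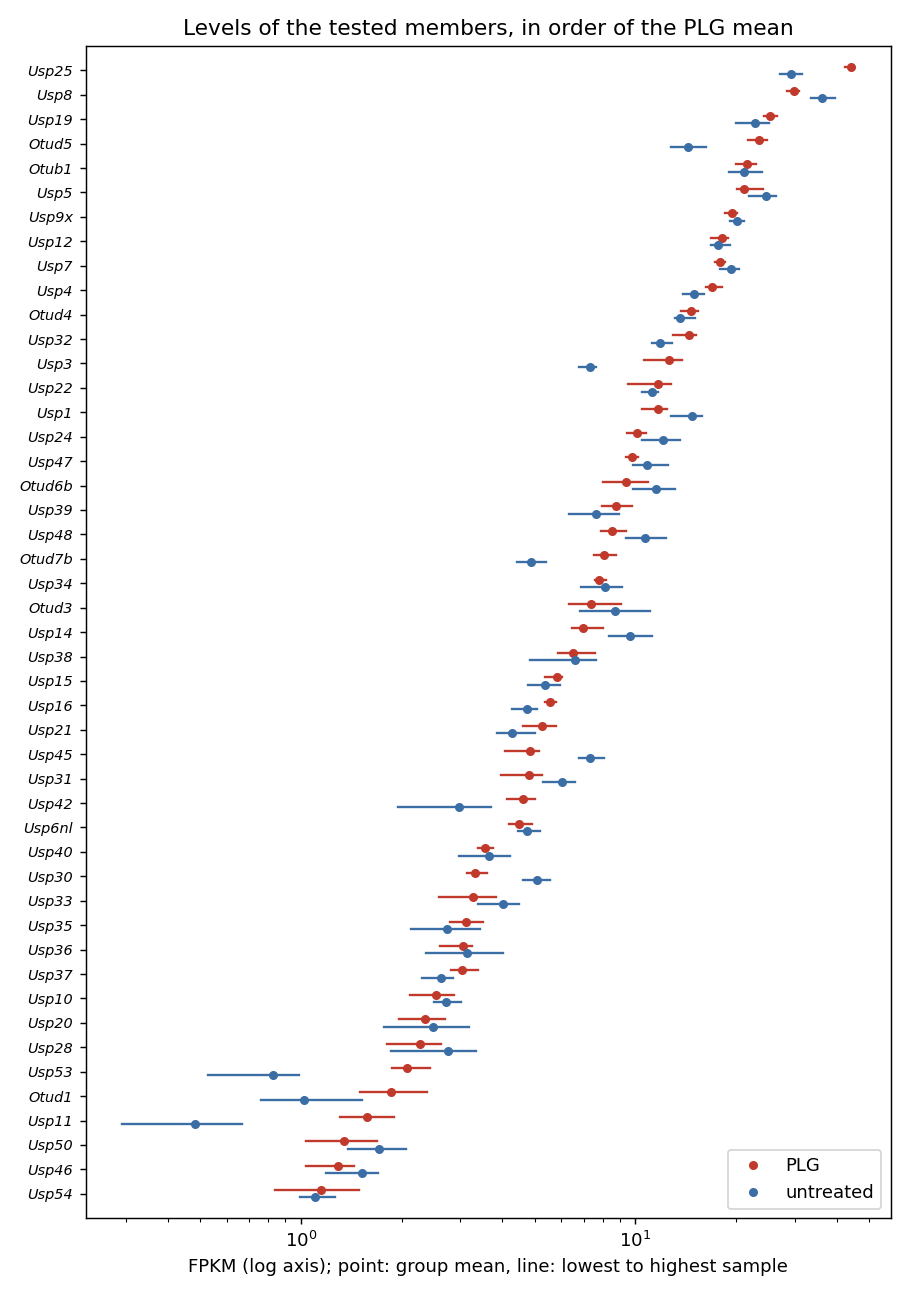
Level of each tested member in FPKM on a log axis, in order of the PLG mean, with the group mean (point) and the lowest to highest sample (line). PLG is drawn in red above untreated in blue, and Usp25 and Usp8 change places at the top.

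Promoter sequences from RefSeq on GRCm38.p6, 250 bases before to 50 after the annotated start, matched 46 of the 59 members, 36 of them tested. They are shown for 5 members: the abundant Usp25 and Usp8, which moved in opposite directions, Otud5, Usp31, the single member that passed with a match to the AP-1 letters, and Usp17ld, a low gene described below. Capitals mark matches on either strand to GGGCGG (the GC box), TGANTCA (AP-1), TATAAA (the TATA box) or GAAA, any 2 bases and GAAA (the interferon-stimulated response element).
Usp25, chr16:77013819-77014118, plus strand: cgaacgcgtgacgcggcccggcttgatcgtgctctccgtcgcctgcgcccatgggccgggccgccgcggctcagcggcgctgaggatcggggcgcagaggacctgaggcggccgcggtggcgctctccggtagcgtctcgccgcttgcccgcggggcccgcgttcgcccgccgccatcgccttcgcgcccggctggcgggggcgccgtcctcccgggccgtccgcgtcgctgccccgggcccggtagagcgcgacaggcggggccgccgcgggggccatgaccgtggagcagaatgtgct
Usp8, chr2:126707078-126707377, plus strand: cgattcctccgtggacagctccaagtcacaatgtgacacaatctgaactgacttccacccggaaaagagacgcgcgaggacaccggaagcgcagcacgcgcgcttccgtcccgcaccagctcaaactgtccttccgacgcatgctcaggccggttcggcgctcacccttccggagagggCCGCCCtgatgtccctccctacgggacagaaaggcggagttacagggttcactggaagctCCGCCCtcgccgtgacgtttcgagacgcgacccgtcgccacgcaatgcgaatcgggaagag
Otud5, chrX:7841581-7841880, plus strand: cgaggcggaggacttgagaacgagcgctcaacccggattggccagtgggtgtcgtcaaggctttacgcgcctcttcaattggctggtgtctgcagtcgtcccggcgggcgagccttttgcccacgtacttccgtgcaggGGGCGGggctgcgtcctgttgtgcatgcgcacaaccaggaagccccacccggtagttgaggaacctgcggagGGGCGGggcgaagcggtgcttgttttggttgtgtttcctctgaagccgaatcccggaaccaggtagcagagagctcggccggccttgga
Usp31, chr7:121707393-121707692, minus strand: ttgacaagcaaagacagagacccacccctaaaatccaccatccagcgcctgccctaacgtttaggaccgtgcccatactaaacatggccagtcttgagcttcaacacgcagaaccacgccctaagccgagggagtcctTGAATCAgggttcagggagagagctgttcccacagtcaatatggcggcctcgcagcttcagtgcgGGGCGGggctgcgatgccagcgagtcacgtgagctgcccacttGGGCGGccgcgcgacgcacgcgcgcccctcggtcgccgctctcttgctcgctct
Usp17ld, chr7:103252456-103252755, minus strand: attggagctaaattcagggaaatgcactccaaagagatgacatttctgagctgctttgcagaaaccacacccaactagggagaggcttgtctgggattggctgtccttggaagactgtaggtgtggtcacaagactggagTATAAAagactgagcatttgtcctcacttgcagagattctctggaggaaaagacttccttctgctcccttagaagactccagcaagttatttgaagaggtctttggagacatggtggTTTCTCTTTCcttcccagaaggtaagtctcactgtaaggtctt

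Most of the tested members had promoters rich in G and C, with a median of 65.1%, against 61% over the 8072 tested genes with a promoter. The GC box was found for 27 of the 36 members (75%, against 69.7% of those genes), and the TATA letters for 2 (5.56%, against 8.57%). The AP-1 letters occurred for 4 (11.1%, against 6.37%), namely Usp10, Usp31, Usp38 and Usp50. GGG, any 3 bases and TTCC, a subset of NF-kB sites, the interferon-stimulated element and TGACGTCA, the cyclic AMP response element, were found for 0 of the 36, against 7.3%, 3.9% and 3.62% of the tested genes. None of these letters occurred in the Usp25 window. The annotated start of that window lies 363 bases inside the deposited gene, so bases before the gene were not searched. For the Otud5 window shown, the start likewise lies 467 bases inside. A match is a run of letters and not a shown binding site, and its absence concerns the window searched only. Both the TATA letters and the interferon-stimulated element letters were present in Usp17ld and also in its relative Usp17lc, and Usp49 held the interferon-stimulated element letters too.

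Among the members that act on signalling adaptors, 6 of 13 tested rose (46.2%, against 29.1% of all genes), 1 fell (7.69%, against 31.3%) and 6 did not pass. With so few genes these shares depend on how roles were assigned: Usp48, tied to the NF-kB subunit RelA and lower with PLG, was counted under chromatin. Otud5 (ENSMUSG00000031154.15, chromosome X, 7841364 to 7876626), whose product removes chains from TRAF3 and restrains type I interferon production, was at 22.2, 21.7, 24.5, 24.8 and 23.997 FPKM in PLG samples 1 to 5. In untreated samples 1 to 5 it was at 12.8, 16.3, 14.2, 15.6 and 12.9 FPKM. Every PLG sample lay above every untreated sample, with a ratio of 1.63 and a difference of 0.67 (SE 0.0719, limma adjusted p = 2.03e-06). Otud7b (ENSMUSG00000038495.14, chromosome 3, 96104527 to 96161129), also known as Cezanne, acts on TRAF3 in the non-canonical NF-kB pathway. It stood at 7.53, 8.76, 7.62, 7.91 and 8.36 FPKM with PLG, against 5.22, 4.45, 5.39, 4.44 and 4.84 FPKM in untreated samples, again without overlap. Its difference was 0.62 (SE 0.07195, limma adjusted p = 4.44e-06) and its ratio 1.65.

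Usp25 (ENSMUSG00000022867.11, chromosome 16, 77013706 to 77116780), which deubiquitinates TRAF proteins in toll-like receptor and interleukin 17 signalling, had 44.4, 43.8, 42.3, 44.8 and 44.96 FPKM in the PLG samples. The untreated samples had 27.4, 31.1, 28.9, 27.02 and 31.4 FPKM, and the groups lay far apart relative to their spread. Its difference of 0.58 (SE 0.0517, limma adjusted p = 3.17e-07) had the smallest p among the members and lay just under 1.5-fold on the log2(FPKM + 1) scale, with a ratio of 1.51. Otud1, which acts on antiviral signalling proteins, had 2.101, 1.77, 2.38, 1.52 and 1.503 FPKM with PLG and 1.52, 0.762, 0.902, 0.939 and 1.005 FPKM untreated, and untreated 1 lay above PLG 4 and PLG 5 while the other untreated samples lay below all PLG samples. It rose by 0.50 (SE 0.119, limma adjusted p = 0.00263), a ratio of 1.81.

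The remaining changes among these members were smaller. Usp4, which acts on TRAF2, TRAF6 and TAK1, averaged 16.95 ± 0.8101 FPKM in PLG samples and 14.97 ± 0.822 FPKM in untreated samples (SD, n = 5 each), a difference of 0.17 (SE 0.0547, limma adjusted p = 0.0162). With quantile scaling its difference was 0.09 and it did not pass (adjusted p = 0.219). Usp21, a deubiquitinase of RIPK1, averaged 5.27 ± 0.474 FPKM in PLG samples and 4.28 ± 0.544 FPKM in untreated samples, a difference of 0.25 (SE 0.0867, limma adjusted p = 0.0239). It did not pass without PLG 1, PLG 3, untreated 1 or untreated 4 (adjusted p 0.0542 to 0.0635). Usp31, reported in human cells to restrain NF-kB, was the single member of the group to fall, at 3.97, 5.25, 5.16, 4.598 and 5.12 FPKM with PLG and 5.51, 6.62, 5.29, 6.28 and 6.49 FPKM untreated. The highest PLG sample, at 5.25 FPKM, was just below the lowest untreated one, at 5.29 FPKM, and the difference was -0.28 (SE 0.0866, limma adjusted p = 0.0141). It did not pass without PLG 3, PLG 4 and untreated 2 together (adjusted p = 0.0669).

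Otub1, a deubiquitinase that can also block ubiquitin-conjugating enzymes without its cutting activity, did not pass although it was among the most abundant members. It had 22.3, 19.98, 19.96, 22.9 and 22.8 FPKM in PLG samples and 23.96, 20.9, 19.1, 22.3 and 18.99 FPKM in untreated samples, and the 95% interval of the difference was -0.12 to 0.19. Usp15 (interval -0.05 to 0.25), Otud4 (-0.02 to 0.22), Usp38 (-0.25 to 0.21), Usp20 (-0.29 to 0.20) and Otud3 (-0.47 to 0.06) did not pass either. On the log2(FPKM + 1) scale each of these intervals lay inside a change of 1.5-fold, 0.585 in log2, and so did those of all 24 tested members that did not pass. With 0.1 in place of 1, which shrinks low genes less, this held for 22 of the 24, and the intervals of Usp28 (-0.60 to 0.11) and Usp50 (-0.68 to 0.02) reached past a fall of 1.5-fold. For Otud4, untreated 5 stood at 15.1 FPKM, above the other untreated samples at 13.2 to 13.4 FPKM.

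Members that act on chromatin and in the nucleus included 3 of 7 tested that rose (42.9%, against 29.1% of all genes) and 1 that fell (14.3%, against 31.3%). Usp3 (ENSMUSG00000032376.12, chromosome 9, 66514637 to 66593142), which removes ubiquitin from histones H2A and H2B, was at 13.8, 10.6, 13.03, 13.2 and 12.4 FPKM with PLG and at 7.54, 7.07, 6.798, 7.603 and 7.47 FPKM untreated. The groups did not overlap, although PLG 2 lay below the other PLG samples. Its difference was 0.71 (SE 0.0707, limma adjusted p = 1.01e-06) and its ratio 1.73. Usp42, another histone deubiquitinase, had 4.64, 4.12, 4.41, 5.02 and 4.82 FPKM in PLG samples and 3.11, 1.96, 3.095, 2.95 and 3.71 FPKM in untreated samples, without overlap and with untreated 2 lowest. It rose by 0.51 (SE 0.111, limma adjusted p = 0.00125), a ratio of 1.55.

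Usp16, a deubiquitinase of histone H2A, rose by less. Its level averaged 5.54 ± 0.201 FPKM in PLG samples and 4.74 ± 0.3196 FPKM in untreated samples, the groups did not overlap, and the difference was 0.19 (SE 0.0657, limma adjusted p = 0.0238). Without PLG 4, PLG 5 or untreated 4 it did not pass (adjusted p 0.0562 to 0.0612). Usp48, a nuclear enzyme tied to the NF-kB subunit RelA, fell with averages of 8.53 ± 0.652 FPKM in PLG samples and 10.7 ± 1.04 FPKM in untreated samples, a difference of -0.29 (SE 0.0743, limma adjusted p = 0.003897). Usp22, the enzyme of the SAGA coactivator complex, did not pass (interval -0.11 to 0.21), nor did the nucleolar Usp36 (interval -0.25 to 0.21) or Usp39. Usp39 passed as higher without untreated 4 (adjusted p = 0.0423) or untreated 5 (0.0425).

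Of 8 tested members tied to DNA repair and the cell cycle, 1 rose (12.5%, against 29.1% of all genes), 3 fell (37.5%, against 31.3%) and 4 did not pass. Usp11 (ENSMUSG00000031066.10, chromosome X, 20703906 to 20720539), which stabilises repair proteins such as BRCA2, had the largest rise of the tested members on either scale. It was at 1.903, 1.31, 1.68, 1.55 and 1.46 FPKM with PLG and at 0.497, 0.293, 0.669, 0.377 and 0.571 FPKM untreated, all untreated samples lying under 1 FPKM. The ratio was 3.28 and the difference 0.80 (SE 0.0997, limma adjusted p = 9.42e-06). The filter already asked for a high level of Usp11 with PLG, so this p-value and the single rise of the group lend no support. Reads on Usp11 numbered 1805 over the PLG libraries and 427 over the untreated ones.

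Usp45 (ENSMUSG00000040455.17, chromosome 4, 21767156 to 21837872), which acts on the repair nuclease subunit ERCC1, fell furthest of the tested members on the log2(FPKM + 1) scale. It had 4.06, 5.16, 5.12, 5.11 and 4.72 FPKM in PLG samples, against 7.27, 7.49, 6.95, 6.76 and 8.08 FPKM in untreated samples, with no overlap. The difference was -0.51 (SE 0.0759, limma adjusted p = 5.09e-05) and the ratio 0.661. Usp1, which deubiquitinates FANCD2 and PCNA and needs the partner Wdr48, averaged 11.7 ± 0.808 FPKM in PLG samples and 14.7 ± 1.27 FPKM in untreated samples, a difference of -0.31 (SE 0.0695, limma adjusted p = 0.00149). Usp24, a large enzyme related to Usp9x, averaged 10.1 ± 0.615 FPKM in PLG samples and 12.1 ± 1.27 FPKM in untreated samples, a difference of -0.24 (SE 0.0736, limma adjusted p = 0.0133), with groups that overlapped. It did not pass without PLG 3, PLG 4 and untreated 2 together (adjusted p = 0.0708).

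Usp7, the regulator of the p53 ligase Mdm2, did not pass, with an interval of -0.21 to 0.00. It passed as lower without untreated 4 (adjusted p = 0.0358), with quantile scaling (0.00324) and with voom, a fit to the recovered reads (0.0321). Usp47 (interval -0.28 to 0.02) and Usp37 (-0.01 to 0.32) did not pass. Nor did Usp28, which stabilises Myc, with averages of 2.27 ± 0.2999 FPKM in PLG samples and 2.75 ± 0.618 FPKM in untreated samples. Without untreated 2, at 1.86 FPKM the lowest of its group, Usp28 passed as lower (adjusted p = 0.0316).

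Among 9 tested members tied to membrane traffic and receptors, 1 rose (11.1%, against 29.1% of all genes) and 2 fell (22.2%, against 31.3%). Usp8 (ENSMUSG00000027363.15, chromosome 2, 126707328 to 126759297), which works with the ESCRT machinery in sorting receptors at endosomes, was at 29.8, 28.3, 29.1, 30.6 and 30.7 FPKM with PLG and 39.4, 34.6, 33.5, 35.5 and 37.8 FPKM untreated. The groups did not overlap, and the difference was -0.27 (SE 0.0519, limma adjusted p = 4.21e-04). Usp32, reported in human cells to act on Rab7, rose, with averages of 14.4 ± 0.858 FPKM in PLG samples and 11.9 ± 0.628 FPKM in untreated samples and a difference of 0.26 (SE 0.0584, limma adjusted p = 0.00154). PLG 2, at 12.98 FPKM, was the lowest PLG sample and still above the highest untreated sample, at 12.9 FPKM.

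Usp33, which acts on receptor recycling, averaged 3.27 ± 0.445 FPKM in PLG samples and 4.01 ± 0.409 FPKM in untreated samples, a difference of -0.23 (SE 0.0926, limma adjusted p = 0.0422). This call was lost without any of PLG 1, 3, 4 or 5 or untreated 1, 2, 3 or 4 (adjusted p 0.0547 to 0.112). Usp9x, an abundant enzyme on the X chromosome with many substrates, had 19.7, 18.5, 20.002, 19.2 and 20.1 FPKM in PLG samples and 20.02, 20.6, 19.2, 21.2 and 19.7 FPKM in untreated samples. The ranges overlapped, and the interval of the difference was -0.15 to 0.06. Usp12 (interval -0.08 to 0.15), its relative Usp46 (-0.34 to 0.06), Usp10 (-0.25 to 0.11), Usp34 (-0.21 to 0.12) and Usp6nl (-0.22 to 0.08) did not pass.

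In the group tied to protein and organelle quality, 3 of 5 tested members fell (60%, against 31.3% of all genes) and 0 rose, against 29.1%. Usp30 (ENSMUSG00000029592.11, chromosome 5, 114065461 to 114124720), an enzyme of the mitochondrial outer membrane that opposes removal of mitochondria by autophagy, was at 3.34, 3.15, 3.22, 3.599 and 3.29 FPKM with PLG. It was at 4.89, 4.603, 5.01, 5.54 and 5.29 FPKM in untreated samples, all of them above all PLG samples. The difference was -0.49 (SE 0.0702, limma adjusted p = 3.69e-05) and the ratio of 0.655 was the lowest of the tested members. Its exons share 329 bases with Alkbh2 and 161 with Svop on the opposite strand, and whether reads were counted by strand is not given in the sources used here.

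Usp14, which trims ubiquitin at the proteasome, had 6.46, 6.54, 8.01, 6.85 and 7.02 FPKM in PLG samples and 9.799, 11.2, 8.34, 9.01 and 9.95 FPKM in untreated samples. The groups did not overlap, and the difference was -0.42 (SE 0.0815, limma adjusted p = 5.60e-04). Of its exon bases 26% overlap Thoc1 on the opposite strand, so its level is uncertain. The same holds for Usp33, Usp34 and Usp38, which share 15.3%, 11.6% and 20.5% of their exon bases with Gm43857, Ahsa2 and Gm9725 on the opposite strand. Usp5, which takes apart free ubiquitin chains, averaged 21.1 ± 1.62 FPKM in PLG samples and 24.5 ± 1.87 FPKM in untreated samples, a difference of -0.21 (SE 0.0651, limma adjusted p = 0.0147). PLG 4, at 24.0 FPKM, stood above the other PLG samples and within the untreated range. Usp19, an enzyme anchored in the endoplasmic reticulum, had 24.9, 26.5, 25.97, 24.1 and 24.8 FPKM with PLG and 21.8, 25.1, 20.01, 22.3 and 24.7 FPKM untreated and did not pass (adjusted p = 0.0565). It passed as higher without untreated 2 (adjusted p = 0.0221) or untreated 5 (0.0311). Usp35 did not pass (interval -0.06 to 0.37).

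Of 5 tested members outside these roles, Usp53 rose and Otud6b fell (20% each, against 29.1% and 31.3% of all genes). Usp53 (ENSMUSG00000039701.11, chromosome 3, 122931493 to 122984510), known from cell junctions, was at 1.92, 1.87, 2.24, 2.43 and 1.895 FPKM with PLG and at 0.872, 0.812, 0.941, 0.53 and 0.985 FPKM untreated. All untreated samples lay under 1 FPKM, and the ratio was 2.502 with a difference of 0.75 (SE 0.0968, limma adjusted p = 1.33e-05). The filter already asked for a high level of Usp53 with PLG, so this p-value and the single rise here lend no support. Otud6b averaged 9.34 ± 1.36 FPKM in PLG samples and 11.5 ± 1.49 FPKM in untreated samples, a difference of -0.28 (SE 0.102, limma adjusted p = 0.0312), and the groups overlapped. It did not pass without PLG 1, 2 or 5 or untreated 1 or 5 (adjusted p 0.0525 to 0.0829). Usp40 (interval -0.21 to 0.16), Usp54 (-0.18 to 0.24) and Usp50 (-0.43 to 0.01) did not pass, and Usp50 passed as lower without PLG 3 (adjusted p = 0.0483).

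**Figure D3:**
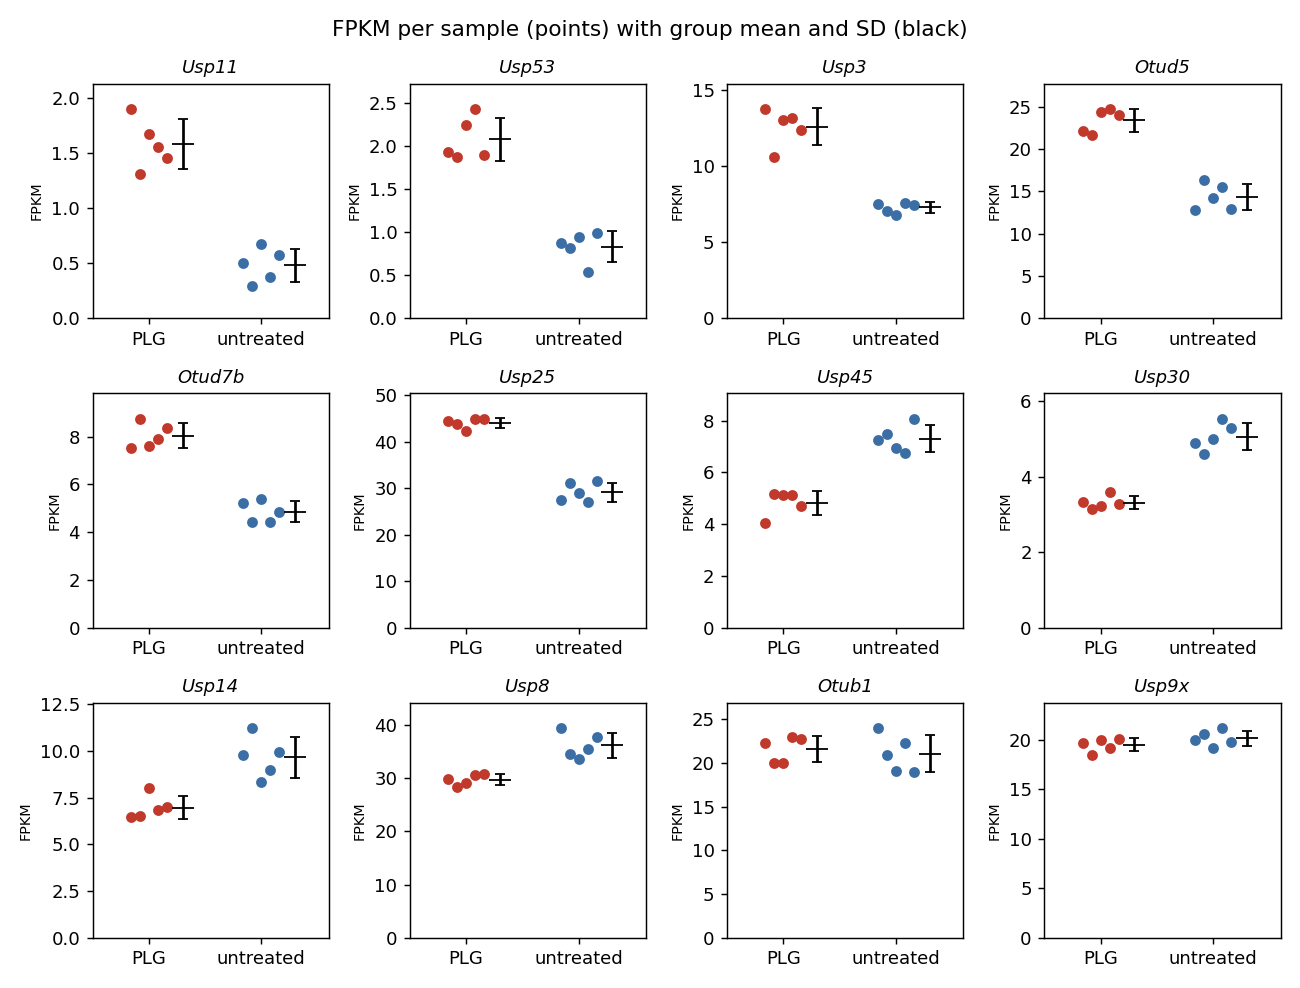
FPKM of 12 members in each of the 5 PLG samples (red, left) and 5 untreated samples (blue, right), with the group mean and SD in black and every axis starting at 0. The groups are apart for the first 10 panels, from Usp11 to Usp8, and overlap for Otub1 and Usp9x.

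The 12 members under the filter were low in all samples. Their highest value was 1.68 FPKM, for Usp17ld in PLG 2. Usp17ld (ENSMUSG00000057321.2, chromosome 7, 103249737 to 103252505) belongs to the USP17 family, of which mouse members were first described as deubiquitinases induced by cytokines in blood cells. It was at 0.369, 1.68, 0.28, 0.652 and 0.854 FPKM with PLG and at 0.13, 0, 0.14, 0 and 0 FPKM untreated. Every PLG sample lay above every untreated sample, and the reads numbered 370 over the PLG libraries, all of which held some, against 21 over the untreated ones, of which 2 held any. In the fit without the filter its difference was 0.70 (SE 0.176, limma adjusted p = 0.00912). Copies of this family are alike in sequence, so reads may be divided among them, and its relatives Usp17la and Usp17lc held 10 and 1 reads over the PLG libraries and 11 and 9 over the untreated ones.

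None of the other members under the filter passed in that fit. Usp2 averaged 0.406 ± 0.179 FPKM in PLG samples and 0.792 ± 0.338 FPKM in untreated samples (adjusted p = 0.0844) and Usp49 0.316 ± 0.107 FPKM in PLG samples and 0.49 ± 0.134 FPKM in untreated samples (0.0932). Of the exon bases of Usp49 51.2% are shared with the gene model Gm20517. Otub2 was at 0.287 to 0.707 FPKM with PLG and 0.263 to 1.252 FPKM untreated, and Usp27x at 0.513 to 0.78 FPKM with PLG and 0.101 to 0.753 FPKM untreated. Usp29, Usp43, Usp44, Usp51 and Usp9y held at most 45 reads each in either group.

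Several related members had unequal changes. Of 17 listed pairs of related members 11 had both genes tested, and for each the difference in level between the genes was compared between the groups by an exact two-sided permutation test. The smallest p it allows is 0.00794, and p-values were adjusted over the 11 pairs, some of which share a gene. In 7 pairs the relation differed between PLG and untreated samples (adjusted p under 0.05), and 3 of the 7 include Usp11 or Usp53. For those 3 the filter already asked for a high level of Usp11 or Usp53 with PLG, so their p-values lend no support. They also entered the adjustment of the other pairs. How many pairs of unrelated genes would pass was not computed. Since 60.4% of all genes tested passed singly, the count of 7 is not read as particular to related members.

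The pair of Usp25 and Usp28 had a difference in level of 3.79 ± 0.14 on the log2(FPKM + 1) scale with PLG and 3.02 ± 0.30 untreated (SD, n = 5 each). That is 0.77 more with PLG (SE 0.146, exact permutation p = 0.00794, adjusted p = 0.0146), without overlap. In the pair of Usp16 and Usp45, Usp16 was the higher gene with PLG, by 0.17 ± 0.12, and the lower gene in untreated samples, by -0.53 ± 0.04. The change of 0.70 (SE 0.0578, exact permutation p = 0.00794, adjusted p = 0.0146) followed from opposite orders in all 5 PLG and all 5 untreated samples. Usp53 and Usp54 likewise stood in opposite orders, with 0.52 ± 0.12 with PLG and -0.21 ± 0.14 untreated, a change of 0.72 (SE 0.083) that the filter favoured.

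Usp36 minus Usp42 was -0.47 ± 0.09 with PLG and 0.07 ± 0.10 in untreated samples. This change of -0.53 (SE 0.0595) had the same exact permutation p of 0.00794, adjusted p = 0.0146. Among the related Usp4, Usp11 and Usp15, Usp11 came closer to Usp15 by -0.70 and closer to Usp4 by -0.63, changes that the filter favoured. Usp4 and Usp15 had a difference of 1.395 ± 0.07 with PLG and 1.33 ± 0.10 untreated (exact permutation p = 0.254, adjusted p = 0.279). For Usp12 and Usp46 the change of 0.18 (SE 0.0607) had an exact permutation p of 0.0317 and an adjusted p of 0.0499, with groups that overlapped. That pair did not pass without PLG 1, 2, 4 or 5 or untreated 1, 2, 4 or 5 (adjusted p 0.0582 to 0.0873). The pairs of Usp9x and Usp24 (adjusted p = 0.0655) and of Usp20 and Usp33 (0.233) did not pass in this exact permutation test, and both passed without PLG 2 (0.0327 each). Usp38 and Usp35 did not pass (exact permutation p = 0.421).

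**Figure D4:**
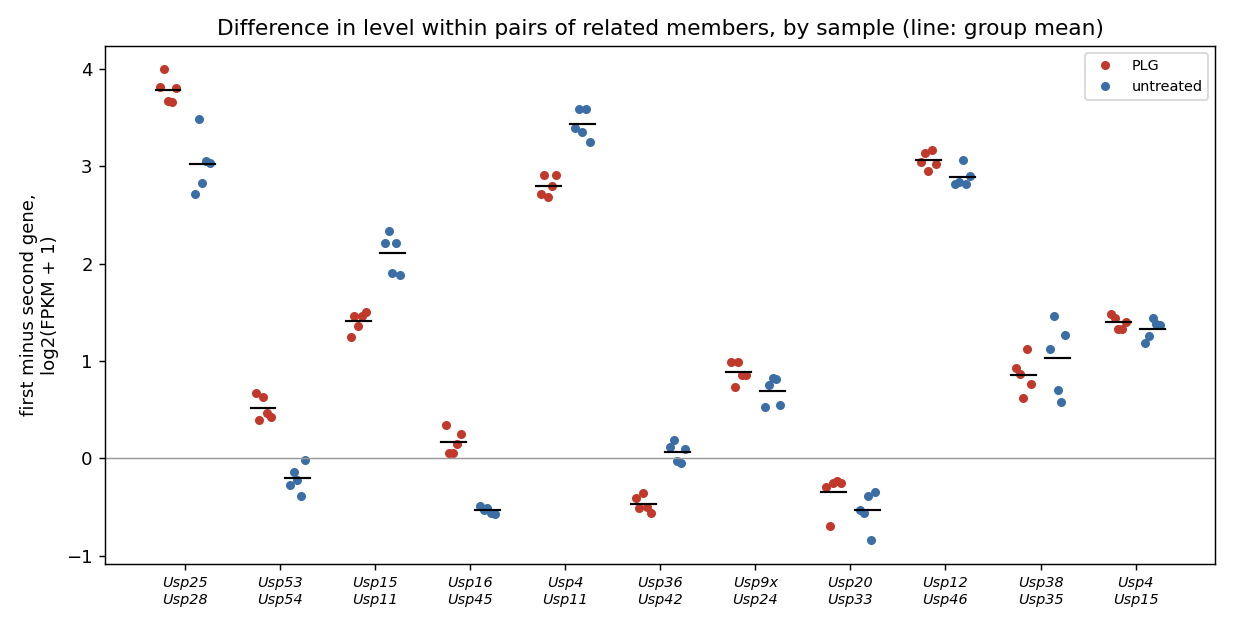
Difference in log2(FPKM + 1) between the first and the second gene of each of the 11 tested pairs (y axis), by sample, with PLG in red at the left, untreated in blue at the right and group means as lines. The first 6 pairs, with changes of 0.53 to 0.77 in size, do not overlap between groups, and for those with Usp11 or Usp53 the filter favoured this. The share of unrelated gene pairs without overlap was not computed.

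Deubiquitinases outside the rule had differences of -0.73 to 2.67, against -0.51 to 0.80 among the tested members. Of 24 tested genes of other deubiquitinase families or outside the symbols of the rule, 7 rose (29.2%, against 29.1% of all genes), 6 fell (25%, against 31.3%) and 11 did not pass, with a median difference of -0.01. Tnfaip3, the OTU enzyme A20 that limits NF-kB signalling, averaged 49.6 ± 1.52 FPKM in PLG samples and 6.96 ± 0.984 FPKM in untreated samples, a difference of 2.67 (SE 0.0762, limma adjusted p = 3.63e-12). Uchl1, of the UCH family, averaged 43.9 ± 2.58 FPKM in PLG samples and 16.8 ± 2.18 FPKM in untreated samples, a difference of 1.34 (SE 0.0774, limma adjusted p = 3.50e-09). The MINDY enzymes prefer long chains, and 3 of them fell, Mindy1, Mindy2 and Mindy3. Mindy1 averaged 18.5 ± 0.7099 FPKM in PLG samples and 31.5 ± 1.78 FPKM in untreated samples and Mindy2 11.9 ± 0.544 FPKM in PLG samples and 19.2 ± 1.05 FPKM in untreated samples, with differences of -0.73 (SE 0.0516, limma adjusted p = 2.76e-08) and -0.64 (SE 0.0547, limma adjusted p = 2.00e-07).

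Ubb, which encodes ubiquitin, and Uba1, which encodes an enzyme that activates it, both rose. Ubb averaged 331 ± 13.4 FPKM in PLG samples and 201 ± 10.3 FPKM in untreated samples, a difference of 0.72 (SE 0.048, limma adjusted p = 1.64e-08). Uba1 averaged 106 ± 3.203 FPKM in PLG samples and 72.4 ± 3.77 FPKM in untreated samples, a difference of 0.55 (SE 0.0456, limma adjusted p = 1.64e-07). In a list of partners of USP enzymes that also counts Mdm2 and Mdm4, 6 of 12 tested genes rose (50%, against 29.1% of all genes). Mdm2 and Mdm4 were among the 6. In the same list 2 fell (16.7%, against 31.3%), and the median difference was 0.17. Wdr48, the activating partner of Usp1, Usp12 and Usp46, rose with averages of 7.82 ± 0.2902 FPKM in PLG samples and 5.11 ± 0.463 FPKM in untreated samples and a difference of 0.53 (SE 0.0691, limma adjusted p = 1.42e-05), while Usp1 fell and the other two did not pass. Mdm2, a substrate of Usp7, averaged 70.5 ± 1.62 FPKM in PLG samples and 39.3 ± 1.86 FPKM in untreated samples, a difference of 0.83 (SE 0.0435, limma adjusted p = 1.37e-09), and its relative Mdm4 7.11 ± 0.382 FPKM in PLG samples and 4.43 ± 0.338 FPKM in untreated samples. The stress granule proteins G3bp1 and G3bp2, partners of Usp10, fell, with differences of -0.17 and -0.21.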

How the data were processed

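RNA of 5 PLG and 5 untreated samples was analysed from 1 table of FPKM that the authors deposited for 16936 protein-coding genes, with gene lengths and GRCm38 positions per the file headers. Tools in the submitters' processing notes, their roles not given, are featureCounts 2.0.0, STAR 2.7.3a, DESeq2 1.24.0, FastQC 0.11.9 and cutadapt 2.10, and the build is GRCm38.p6. Which annotation release, strand setting and rule for multiply matching reads were used is not given in the sources used here. All 59 members occur in GENCODE M21, 57 with the same exon length, and exon overlaps were read from it.

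Genes with at least 1 FPKM in 5 of 10 samples (9997) were compared as log2(FPKM + 1) in limma 3.58.1 under R 4.3.3, fitting PLG against untreated alone with an intensity trend, and p-values were adjusted over all 9997. No count model gave a main result, since the values are FPKM. The FPKM of low genes times gene length fell on whole multiples of 1 step in each sample (100% of the values tested, tolerance 0.1 read), which gave the reads. Between 47.8% and 52% of the recovered numbers were odd in each sample, whereas depths 2 times as large would make all of them even. A single read on 1 kb of gene was worth 0.0141 to 0.0265 FPKM in PLG samples and 0.0235 to 0.0313 FPKM in untreated samples. In simulated data for this comparison with 9997 genes, limma recovered 44% of 50 genes changed by 1.25-fold, 88% at 1.5-fold and 100% at 2-fold, and called 4 of 9797 unchanged genes. The simulation left 9797 genes unchanged and drew noise independently for each gene, whereas 60.4% of genes passed in the data. Its shares may therefore not hold for the data.

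The members, roles, pairs and lists were chosen with earlier results of these data known. Named in full are members called with at least 1.5-fold change and the 3 most abundant members that did not pass; the others shown by sample were chosen after their values were seen. Alternatives were pseudocounts of 0.1 and 5, no filter or 5 FPKM, common-sum, median-of-ratios and quantile scaling, limma without trend or with robust fitting, a replicate block, voom on the recovered reads and leaving out each sample. Leaving out PLG 3, PLG 4 and untreated 2 together was added after seeing the data. One list, of genes for ubiquitin and its activating enzymes, is not reported here in full.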

Additional observations from a re-analysis of the deposited data

Results flagged for a closer look

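In 94 groups of 5 samples, a group being a tested member in PLG or in untreated samples, 4 held a sample far from the others, with a gap to its nearest neighbour above 0.71 of the whole range. Chance flags about 1 in 20 groups. Usp5 was at 24.0 FPKM in PLG 4, against 20.1 to 20.6 FPKM in the other PLG samples. For Usp15, PLG 2 had 5.38 FPKM and the other PLG samples 5.86 to 6.04 FPKM. PLG 2 was also low for Usp32, at 12.98 FPKM, against 14.5 to 15.1 FPKM. Otud4 was at 15.1 FPKM in untreated 5 and at 13.2 to 13.4 FPKM in the other untreated samples.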

How the results depend on the processing

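Usp11 and Usp53, which met the filter through PLG samples alone, were tested in 15 of the 22 alternatives and in none that left out a PLG sample. Of the other 21 members that passed, 10 passed in the same direction in each alternative that tested them: Otud1, Otud5, Otud7b, Usp3, Usp25, Usp32 and Usp42 as higher, and Usp14, Usp30 and Usp45 as lower. No called member changed sign, and 17 of the 21 passed in each fit without 1 sample. Leaving out 1 sample gave 9 to 14 members higher, 9 to 11 lower, 3 to 6 higher by 1.5-fold, 0 lower by 1.5-fold, 5462 to 5895 genes called and 6 to 8 pairs. Because of these 2 genes the count by 1.5-fold was 3 without PLG 1, 2, 4 or 5. Scaling to a common sum left 9 members higher and 3 lower; that sum includes the repeat-like gene models, 0.775% to 27.8% of the summed FPKM. A pseudocount of 0.1 gave 8 higher and 2 lower by 1.5-fold, one of 5 gave 0 higher, a filter of 5 FPKM left 3 higher among 30 members tested, and voom gave 2 lower by 1.5-fold; the added constant, the fewer genes and the scale without a constant differ by construction. Under quantile scaling Usp4 (adjusted p = 0.219) and Usp33 (0.0731) did not pass, and Usp7 (0.00324), Usp47 (0.0189) and Usp9x (0.0307) passed as lower; voom also passed Usp7 (0.0321) and Usp47 (0.0232). Under median-of-ratios scaling Usp33 (0.1) did not pass, and Usp19 (0.0122), Otud4 (0.0374) and Usp37 (0.0482) passed as higher. With no filter Usp33 (0.066) and Otud6b (0.0643) did not pass. Without PLG 3, PLG 4 and untreated 2 together, Usp16, Usp21, Usp24, Usp31 and Usp33 did not pass, and Usp19 as higher and Usp28 and Usp50 as lower did. The replicate block gave 11 members higher and 10 lower, and Usp16 (adjusted p = 0.0573) and Usp33 (0.0803) did not pass. Same-numbered samples deviated together at correlations of -0.121 to 0.0988, and differently numbered ones at -0.124 to 0.175. These values show no sign of pairing by number but cannot exclude it, since other variation among samples could hide it. Sign flips within the replicate block allow no p under 0.0625, and 0 pairs passed. No scaling moved the median of all genes by over 0.1.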
